A study of Canis lupus familiaris with 186 samples.

Results

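Genes of the MHC class II pathway were followed through 186 primary osteosarcomas of pet dogs. They were DLA-DRA and DLA-DQA1, CD74, DLA-DMA and DLA-DMB, DLA-DOA and DLA-DOB, and CIITA, chosen by symbol as 8 of the 37952 gene rows of the count table, and all 8 symbols matched 1 row each. Biopsies of appendicular tumors were taken before any treatment in the trials COTC021 (93 dogs) and COTC022 (93 dogs), 1 library per dog. The trial was the only group that the labels gave, so other clinical variables were not analysed here. The material was bulk tumor RNA, which holds the RNA of tumor cells, leukocytes, vessels and stroma together, and in such samples fewer cells of a type and less RNA per cell cannot be told apart.

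MHC class II molecules present peptides from the endosome to CD4+ T cells. An α chain and a β chain assemble around the invariant chain, which escorts them to the endosome, where DM exchanges the remnant of the invariant chain for a peptide and DO restrains DM. Dendritic cells, macrophages and B cells make class II constitutively, in dogs many T cells do as well, and other cells can be induced to do so by interferon γ. CIITA is the co-activator through which both routes run: it does not bind DNA itself but docks on the RFX, NF-Y and CREB proteins assembled at class II promoters.

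In the UU_Cfam_GSD_1.0 annotation of RefSeq, 6 of the 8 genes lie on chromosome 12 and all are protein coding. DLA-DRA (positions 2287866 to 2291417), which encodes the α chain of DR, is followed by DLA-DQA1 (2375650 to 2382076), the α chain of DQ. DLA-DOB (2533116 to 2538741), DLA-DMB (2658442 to 2663494), DLA-DMA (2672100 to 2675661) and DLA-DOA (2718589 to 2723244) come after them. CD74, the invariant chain, lies on chromosome 4 (59604607 to 59613287) and CIITA on chromosome 6 (32068973 to 32131721). The β chain genes HLA-DRB1, the symbol under which RefSeq lists DLA-DRB1, and DLA-DQB1 were read beside them as the other class II chains.

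Library totals ran from 6587634 to 27420867 counts, with a median of 10797170.5. The 50 libraries whose column names have a longer separator (long-separator libraries) were deeper (median 19440456.5 counts) than the other 136 (median 9851682.5), and 18 of the 50 belonged to COTC021 and 32 to COTC022. Osteoblast markers (RUNX2, SP7, ALPL, IBSP and BGLAP) summed to between 53.1 and 16722 CPM (counts of a gene per 1e6 counts of its library), and the macrophage markers to between 75.5 and 4024 CPM, so both lists were read in every library. B cell markers were sparse: their summed level had a median of 2.76 CPM, and MS4A1, which encodes CD20, was at 0 in 117 libraries.

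The classical chains and the invariant chain were read in every tumor, over a wide range. CPM is not scaled by gene length, so levels are compared between tumors and not between genes. DLA-DRA had 15.7 CPM in the lowest tumor, 184.5 at the median and 4039 in the highest. The 10th and 90th percentiles stood 13.8-fold apart, at 47.2 and 653.1 CPM. DLA-DQA1 ran from 7.12 through a median of 92.4 to 2115 CPM, a 16.8-fold span between the same percentiles. CD74 ran from 73.1 through 556.6 to 9438 CPM, with 11.6-fold between the percentiles. The fewest counts behind any of these values were 68, for DLA-DQA1.

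Of the peptide exchange factor DM, the chain DLA-DMA varied less than the genes above. DLA-DMA ran from 2.20 through 11.1 to 206.0 CPM, and its 10th and 90th percentiles were 7.94-fold apart, the narrowest span of the 8 genes. DLA-DMB, its partner chain, ran from 2.88 through 23.3 to 388.6 CPM, with 11.6-fold between the percentiles. Both chains had at least 19 counts in every library.

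The modulator DO was close to the limit of the libraries. DLA-DOA had a median of 8 counts (0.672 CPM) and a highest value of 30.2 CPM, and it was at 0 in 11 libraries, where 3 counts would have been 0.132 to 0.403 CPM. DLA-DOB had a median of 9 counts (0.737 CPM) and a highest value of 21.9 CPM, with 4 libraries at 0. At least 10 counts were reached in 81 tumors for DLA-DOA and in 91 for DLA-DOB. Neither gene passed the filter on low counts, so 6 of the 8 genes entered the main fits. Slopes and fitted differences given below for DO come from the fit without that filter. Correlations and ratios of DO use log2 CPM and no fit. CIITA itself had 0.0822 CPM in the lowest tumor (1 count), 3.40 at the median (40.5 counts) and 68.1 in the highest, and 172 tumors had 10 counts or more.

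**Figure D1:**
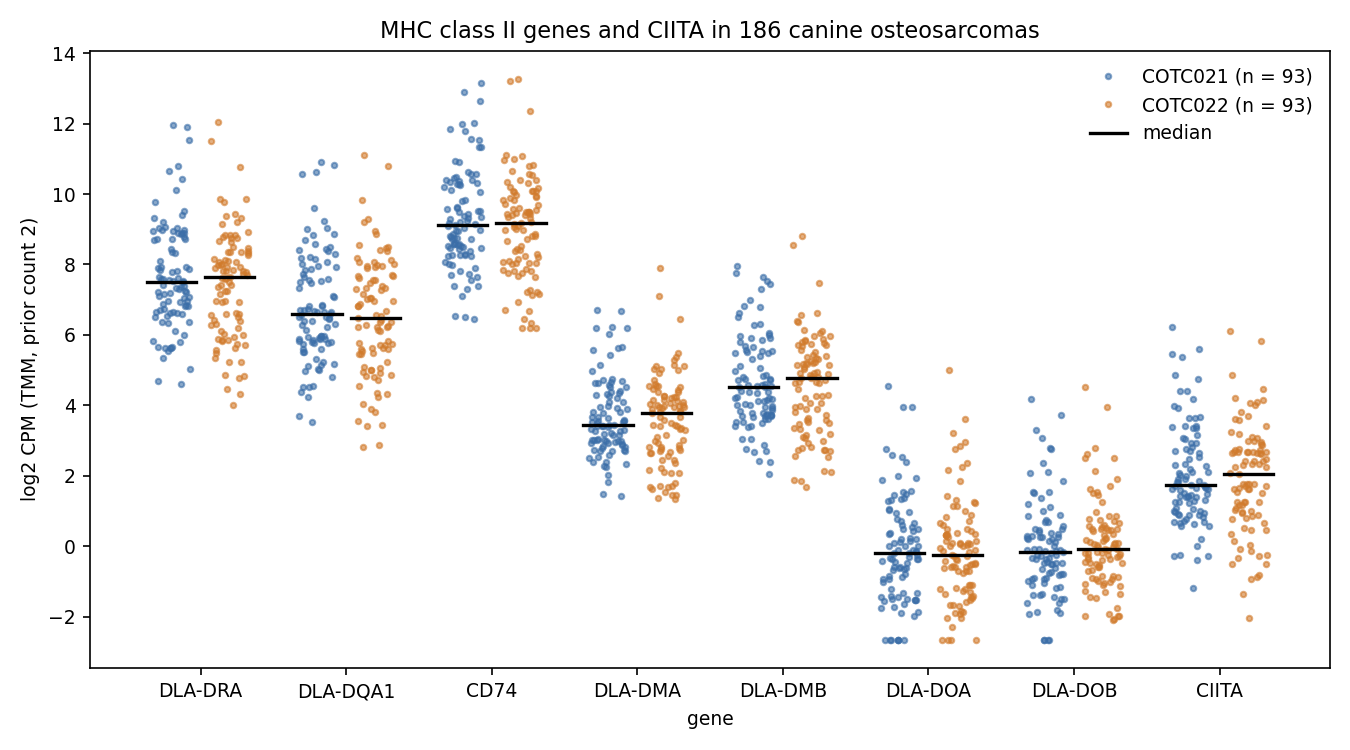
Level of each of the 8 genes in log2 CPM (TMM scaling, prior count 2; vertical axis) in each tumor, with COTC021 and COTC022 side by side (93 tumors each) and a black bar at the median. The trials overlap along most of the range of every gene, and DLA-DOA and DLA-DOB sit lowest, with some tumors at the floor.

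Set against the rest of the transcriptome, the spread between tumors was large. The standard deviation (SD) of log2 CPM was 1.20 for DLA-DMA, 1.37 for DLA-DMB, 1.44 for CD74, 1.50 for CIITA, 1.54 for DLA-DRA and 1.64 for DLA-DQA1 (n = 186). The median SD of the 13422 genes that passed the filter was 0.616, and these 6 genes lay between the 84.1st and the 93.6th percentile of it. The highest tumors were largely shared and the lowest less so. A single COTC022 tumor was the highest of all for DLA-DRA, DLA-DQA1, CD74, DLA-DOA and DLA-DOB, and the second highest for DLA-DMA, DLA-DMB and CIITA (66.2 CPM). It ranked 3rd of 186 in the B cell marker score, and its ranks in the other marker scores are not given here. Of the 10 tumors highest in CIITA, 8 were among the 10 highest for DLA-DRA, CD74, DLA-DMA and DLA-DMB, 7 for DLA-DQA1 and DLA-DOB, and 5 for DLA-DOA. Of the 10 lowest in CIITA, 7 were among the 10 lowest for CD74, 6 for DLA-DRA, 5 for DLA-DQA1 and DLA-DMB, 4 for DLA-DMA, 2 for DLA-DOA and 1 for DLA-DOB. Low ranks of CIITA and the DO genes rest on few counts. CIITA had fewer than 10 counts in 14 tumors, and DLA-DOB was at 0 in 4. DLA-DOA was at 0 in 11, more than the 10 places compared, so its overlap at the low end is not resolved.

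Levels of the class II genes were correlated with that of CIITA. Over the 186 tumors Pearson's r with CIITA was 0.924 for DLA-DRA (Spearman's rho 0.913), 0.916 for CD74 (rho 0.902), 0.909 for DLA-DMB (rho 0.895), 0.885 for DLA-DMA (rho 0.874) and 0.884 for DLA-DQA1 (rho 0.873). For the sparse DO genes r was 0.770 (DLA-DOA, rho 0.746) and 0.781 (DLA-DOB, rho 0.744). Each of these 7 relations, and those of the 2 β chains, had a two-sided permutation p of 1e-05, the smallest that 100000 resamples can give. Without the 2 tumors farthest from the median of CIITA, r was 0.916 for DLA-DRA, 0.909 for CD74 and 0.745 for DLA-DOA. Within COTC021 r was 0.925 for DLA-DRA and 0.799 for DLA-DOA, and within COTC022 0.923 and 0.745. Within the deeper, long-separator libraries r was 0.956 for DLA-DRA and 0.847 for DLA-DOA, against 0.911 and 0.739 within the others. All values share 1 library per tumor and its scaling.

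**Figure D2:**
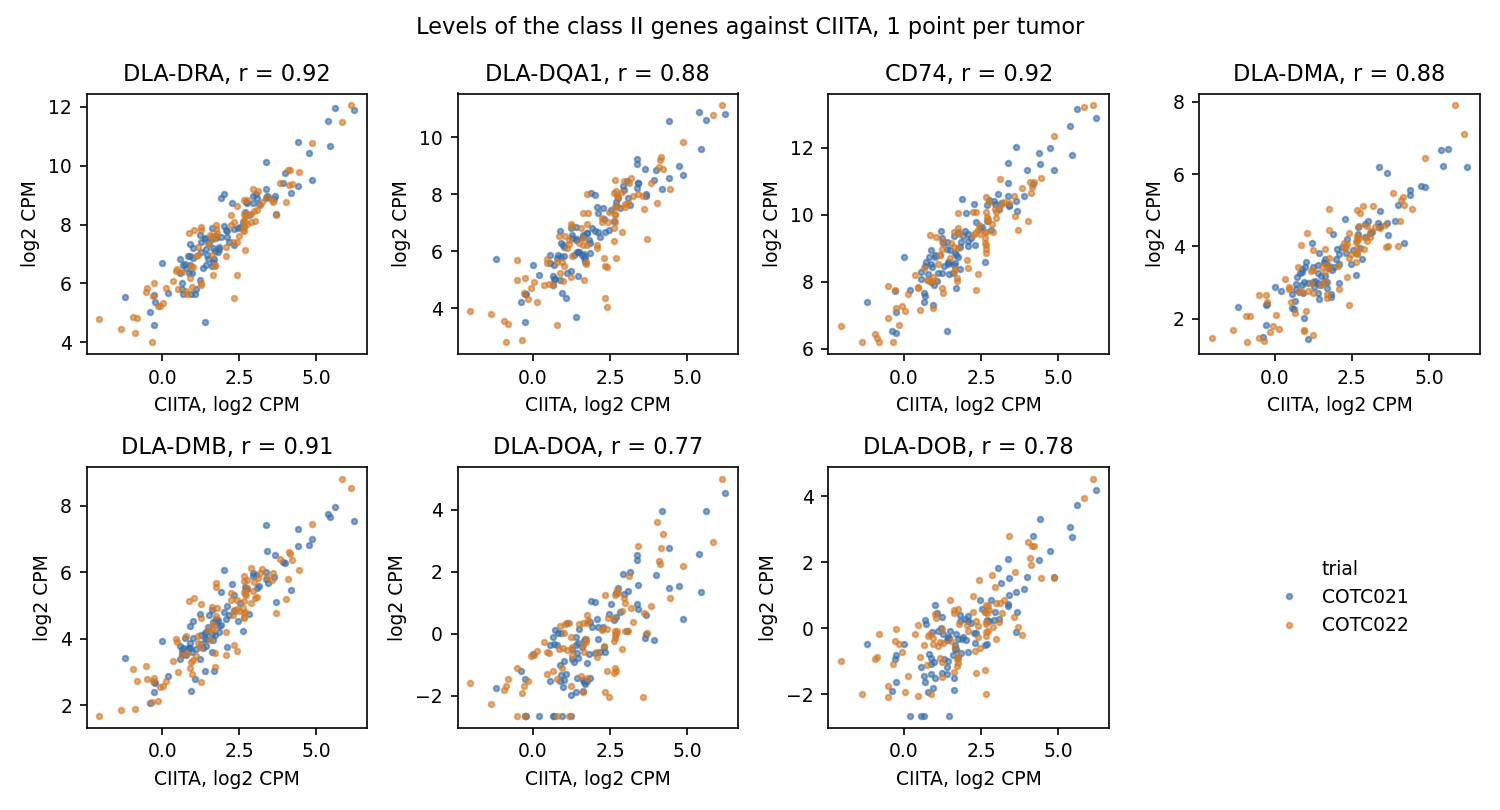
Level of each class II gene (vertical axes, log2 CPM) against CIITA (horizontal axes, log2 CPM), 1 point per tumor, colored by trial. Points of both trials lie along the same band in each panel, and the band is widest for DLA-DOA (r = 0.77) and DLA-DOB (r = 0.78).

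Class II genes stood at the top when all 13421 other filtered genes were ordered by r with CIITA. HLA-DRB1 was 1st (0.924), followed by DLA-DRA, CD74, DLA-DMB and, in 5th place, DLA-DQB1 (0.893), while DLA-DMA was 7th and DLA-DQA1 8th. The median r of all these genes was -0.02. Among named genes other than the 8, the 10 most like CIITA were the 2 β chains, SASH3 (0.893), CASP4 (0.873), GIMAP7 (0.867), IRF8 (0.863), FGR (0.859), CD53 (0.853), FYB1 (0.848) and CD37 (0.847). SASH3, FYB1 and CD37 are leukocyte signaling or surface genes, IRF8 is a transcription factor of dendritic and other myeloid cells and of B cells, and CASP4 encodes an inflammatory caspase. When genes were ordered by their mean r over the 6 filtered members, 8 of the 10 leading genes were the same, and FGD2 (mean r 0.880) and DOCK2 (0.880) took the places of GIMAP7 and FGR.

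Ratios between class II genes varied less between tumors than their levels, among partner chains and others. At similar SDs this follows from a high r and is not a separate result. DLA-DRA and CD74 had r = 0.974, and the SD of their log2 ratio was 0.356, against 1.54 and 1.44 for the genes alone. DLA-DRA and HLA-DRB1, the 2 chains of DR, had r = 0.972 and a ratio SD of 0.363. DLA-DMA and DLA-DMB, the chains of DM, had r = 0.964 and a ratio SD of 0.384. The chains of DQ were looser (DLA-DQA1 and DLA-DQB1, r = 0.938, ratio SD 0.580) than DLA-DQA1 and DLA-DRA, which are not partners (r = 0.963, ratio SD 0.440). Those of DO were the loosest (r = 0.772, ratio SD 0.964), at counts where 1 read is a large share of the value. For comparison, DLA-DRA and CIITA had r = 0.924 and a ratio SD of 0.595. All 21 pairs among the 7 class II genes had r between 0.712 and 0.974, each with a permutation p of 1e-05.

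**Figure D3:**
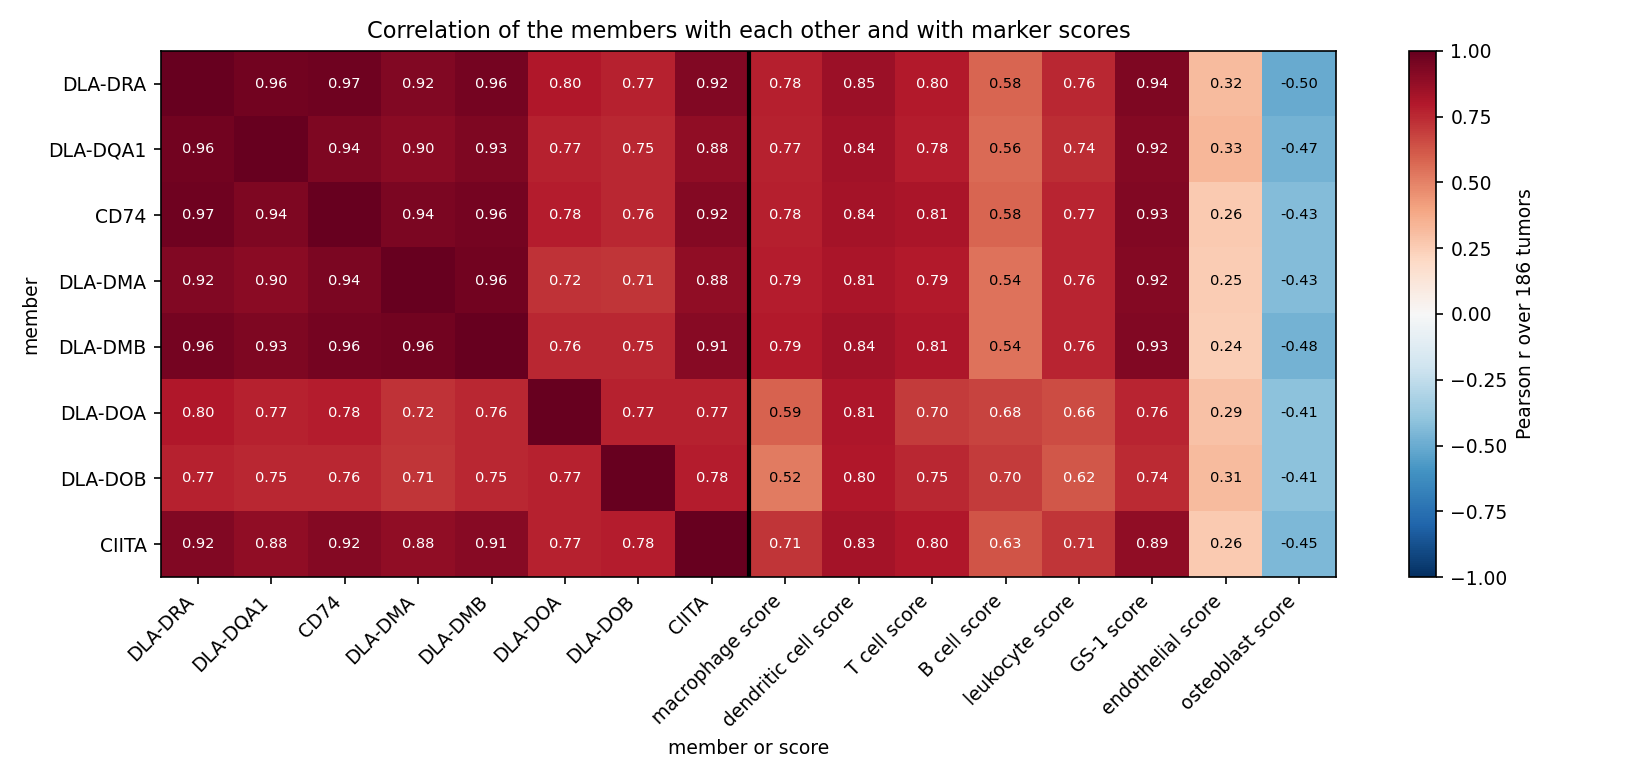
Pearson's r over 186 tumors of each member (rows) with the members (left of the line) and with scores averaged over marker genes (right of the line), written in each cell and colored from -1 to 1. The 2 DO rows are paler among the members, and only the osteoblast column is negative.

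A regression across all genes put a size on the relation. With trial in the model (limma-voom, Benjamini-Hochberg adjustment over 13421 genes), 1 doubling of CIITA went with a log2 rise of 0.98 ± 0.040 (SE) in DLA-DQA1 and of 0.95 ± 0.031 in DLA-DRA (adjusted p = 3.83e-72). The slope was 0.87 ± 0.029 for CD74 (adjusted p = 8.47e-70), 0.85 ± 0.029 for DLA-DMB and 0.75 ± 0.028 for DLA-DMA. A slope of 1 would mean that a gene doubles whenever CIITA doubles. CIITA itself had a median of 40.5 counts and fewer than 10 in 14 tumors. The effect of its counting error on the slopes was not tested. All 5 filtered members were called at adjusted p under 0.05 with a positive slope, as were 20.9% of all genes tested (43.9% in either direction, 23.0% downward), so the call itself is common. The size was less common: the 5 slopes lay between the 98.8th and the 99.6th percentile of all slopes, whose median was -0.01. It was not particular to class II genes. In the same fit the 4 filtered T cell markers had slopes of 0.93 to 1.33. Dendritic cell markers had slopes of 0.03 to 0.98 (median 0.85) and macrophage markers of 0.08 to 0.79. Without the filter, DLA-DOA had a slope of 0.94 ± 0.051 and DLA-DOB of 0.84 ± 0.043, both called, beside 16.5% of 25634 genes called upward there.

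Leukocyte marker scores moved with all 8 genes. Over the 186 tumors r with the dendritic cell marker score was 0.852 for DLA-DRA and 0.831 for CIITA, with the T cell score 0.795 and 0.798, with the macrophage score 0.779 and 0.714, and with the B cell score 0.579 and 0.627. With the osteoblast score r was -0.50 for DLA-DRA and -0.45 for CIITA, and with the endothelial score 0.318 and 0.259. Each score was the mean standardized log2 CPM over its markers. The 64 relations of the 8 genes with 8 scores had permutation p-values for Pearson's r from 1e-05 to 0.000729993. Of the markers themselves, 4 of 4 filtered T cell markers and 5 of 6 macrophage markers rose with CIITA in the regression, and 4 of 5 osteoblast markers fell. All filtered dendritic cell markers rose except ZBTB46 (0.03). Over all genes tested, 20.9% were called upward and 23.0% downward in that regression. Scores of 3 of these cell types (macrophages, T cells and B cells) were entered in the model, and the dendritic cell score was not.

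With macrophage, T cell and B cell scores added, the slopes on CIITA were smaller and remained positive in all 5 filtered members. DLA-DRA kept 0.64 ± 0.051 (adjusted p = 1.72e-22), DLA-DQA1 0.57 ± 0.067 (adjusted p = 1.09e-11) and CD74 0.53 ± 0.047 (adjusted p = 1.36e-18). DLA-DMB kept 0.50 ± 0.046 and DLA-DMA 0.39 ± 0.046. These were 51.9% (DLA-DMA) to 67.5% (DLA-DRA) of the slopes without scores. All 5 were called, beside 7.28% of 13421 genes called upward (13.1% in either direction, 5.84% downward), and lay between the 96.8th and the 99.1st percentile. Without the filter, DLA-DOA had 0.51 ± 0.112 (adjusted p = 0.000932) and DLA-DOB 0.51 ± 0.086 (adjusted p = 1.12e-05), where 4.46% of genes were called upward. Marker scores are averages of 5 or 6 transcripts and stand for cell content in part.

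In the same fit the macrophage and T cell scores had slopes of their own, an analysis added after the data had been seen. The 5 filtered members rose with the macrophage score at equal CIITA (0.47 for CD74 to 0.59 for DLA-DQA1, in log2 per unit of score, with 13.7% of genes called upward). They also rose with the T cell score (0.30 for DLA-DRA to 0.43 for DLA-DMB, with 4.60% of genes called upward). None was called on the B cell score (-0.18 for DLA-DMB to -0.04 for DLA-DQA1, with 2.27% of genes called). In the fit without the filter the DO genes were called on the B cell score. DLA-DOA rose by 0.72 ± 0.138 per unit of B cell score (adjusted p = 0.000178) and DLA-DOB by 0.50 ± 0.105 (adjusted p = 0.00126), where 1.56% of 25634 genes were called in either direction. Their slopes on the macrophage score (0.37 and -0.04) and on the T cell score (0.03 and 0.28) did not pass the test, beside 14.4% and 5.63% of genes called on those scores. The difference in slope between DO and the other members was not tested, and both DO genes and the B cell markers rest on few counts.

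**Figure D4:**
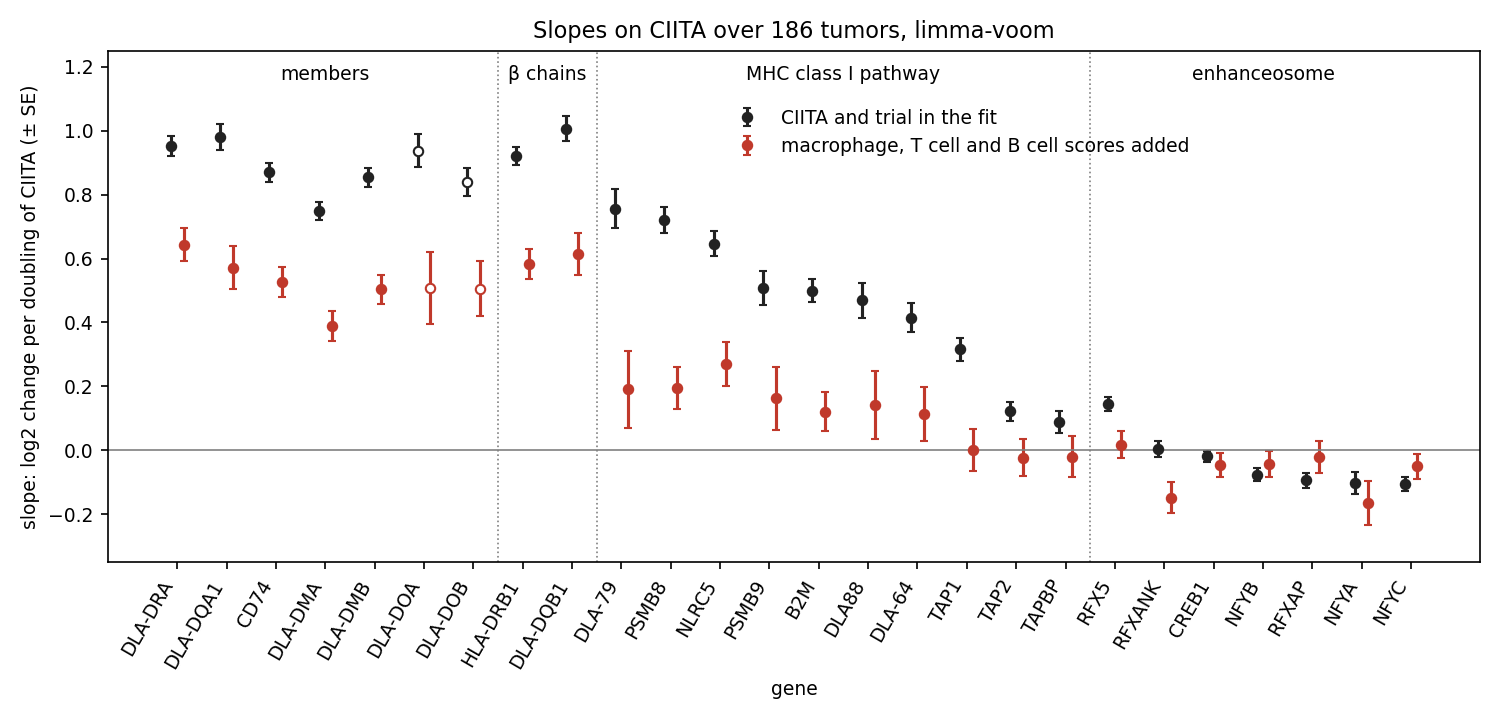
Slope of each gene on CIITA (vertical axis, log2 change per doubling of CIITA, with bars of 1 SE) with trial in the fit (black) and with macrophage, T cell and B cell scores added (red). Open circles mark DLA-DOA and DLA-DOB, taken from the fit without the low-count filter. With the scores added the members stay between 0.39 and 0.64 and the MHC class I pathway genes between -0.02 and 0.27.

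Other genes of the pathway were read from fixed lists. The RFX, NF-Y and CREB1 genes, on whose products CIITA docks, had a median slope of -0.08 on CIITA: of 7, only RFX5 rose (0.15 ± 0.022), NFYA, NFYB, NFYC and RFXAP fell by 0.08 to 0.11, and CREB1 (-0.02) and RFXANK (0.0045) did not pass the test. All 6 filtered genes of the interferon γ route rose, with IRF1 first (0.49 ± 0.042) and JAK1 last (0.07 ± 0.025). The cytokine gene IFNG did not pass the filter, with a median of 4 counts, and its r with CIITA was 0.267 (permutation p = 0.000289997; rho 0.169). Of the endosomal processing genes 6 of 7 rose, led by CTSS, the protease that trims the invariant chain (0.77 ± 0.041), and MARCHF1, a ligase that turns over surface class II (0.60 ± 0.037). SPPL2A had 0.03 ± 0.030. The co-stimulatory genes CD80 (0.67), CD86 (0.66) and CD40 (0.43) rose, all 3 of 3. These counts stand beside 20.9% of all genes tested called upward and 23.0% downward.

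The MHC class I pathway also rose with CIITA, in 10 of 10 filtered genes with a median slope of 0.48, from 0.09 ± 0.034 for TAPBP to 0.76 ± 0.061 for DLA-79. Of all genes tested, 20.9% were called upward in the same fit. NLRC5, the class I counterpart of CIITA, had 0.65 ± 0.038. With the 3 cell type scores added, 7.28% of all genes tested were called upward and 5.84% downward. NLRC5 (0.27 ± 0.068, adjusted p = 0.00286) and PSMB8 (0.19 ± 0.066, adjusted p = 0.0351) were still called in that fit. The other 8 were not, among them B2M (0.12 ± 0.061). Of the enhanceosome genes RFXANK was then called, downward (-0.15 ± 0.048, adjusted p = 0.0248), and none of the 6 interferon γ route genes was. CD86 (0.38 ± 0.056) and CD80 (0.29 ± 0.068) were called, and so were CTSS (0.27 ± 0.056) and MARCHF1 (0.19 ± 0.059) upward and IFI30, a lysosomal thiol reductase, downward (-0.28 ± 0.058). Of the 7 dendritic cell markers, XCR1 (0.56 ± 0.122), BATF3 (0.62 ± 0.115), IRF8 (0.35 ± 0.061) and LAMP3 (0.31 ± 0.104) were called. The slopes of XCR1 and BATF3 lay within the range of the 5 filtered members in that fit (0.39 to 0.64), and those of the other dendritic cell markers below it. The size of the remaining slope was thus not particular to class II genes. Dendritic cell content was not among the scores added.

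Neighbouring genes on chromosome 12 did not all follow. Of the 14 protein-coding genes from DLA-DRA to DLA-DOA, 12 passed the filter, 6 of them class II chains. Between DLA-DOB and DLA-DMB lie PSMB8 (r with CIITA 0.780), PSMB9 (0.572), TAP1 (0.533) and TAP2 (0.289), which serve the class I pathway. BRD2, a chromatin reader that sits between DLA-DMA and DLA-DOA, had r = -0.02 and a slope of -0.01 ± 0.018 (adjusted p = 0.728) at a median of 280.5 CPM. LOC100856137, an uncharacterized locus 172.4 kb from the start of DLA-DRA, had r = 0.837.

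**Figure D5:**
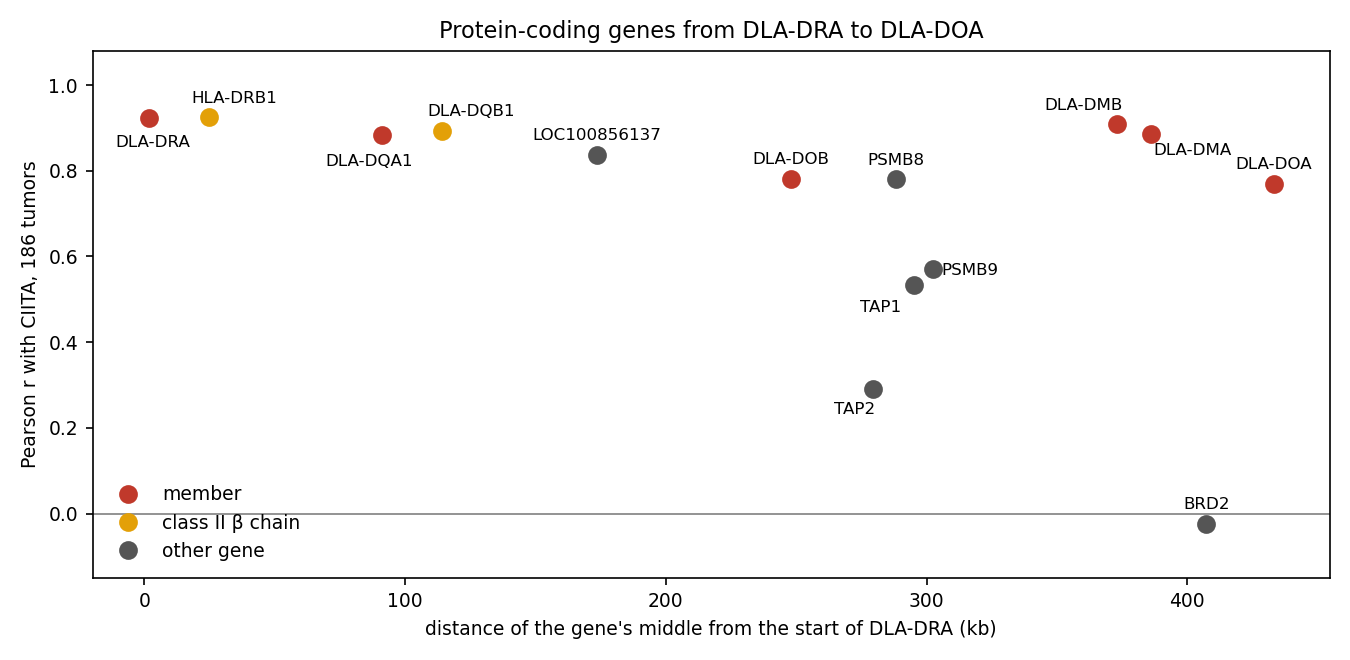
Pearson's r with CIITA over 186 tumors (vertical axis) for each protein-coding gene from DLA-DRA to DLA-DOA, by the distance of its middle from the start of DLA-DRA (horizontal axis, kb). Class II genes lie between 0.77 and 0.92, TAP2 at 0.289 and BRD2 near 0.

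Levels were next set against GS-1, a signature of genes that the study took from an earlier comparison of canine tumors with osteoblasts and used to sort the tumors. Of its genes, DLA-DQA1 and DLA-DQB1, were left out, and the score is the mean standardized log2 CPM of 25 others, those that the study's filter on genes had kept. It correlated with DLA-DRA at r = 0.935 (rho 0.931), with DLA-DMB at 0.929, CD74 at 0.926, DLA-DQA1 at 0.916, DLA-DMA at 0.916 and CIITA at 0.886, and with DLA-DOA at 0.762 and DLA-DOB at 0.742. Each permutation p was 1e-05. In limma-voom the slopes per unit of score ran from 1.41 ± 0.043 (DLA-DMA) to 1.86 ± 0.063 (DLA-DQA1), with 1.68 ± 0.058 for CIITA. All 6 filtered members were called, beside 22.6% of 13397 genes called upward (49.5% in either direction), and they lay between the 98.9th and the 99.7th percentile. Without the filter DLA-DOA had 1.69 ± 0.091 and DLA-DOB 1.45 ± 0.081, with 17.2% of genes called upward. Of these 25 genes 24 rose with CIITA, in the fit where 20.9% of all genes tested were called upward. CD53 and FGD2, named above, belong to it.

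No difference between the trials was called for these genes. DLA-DRA had a median of 180.6 CPM in COTC021 (24.5 to 3696) and of 192.1 CPM in COTC022 (15.7 to 4039), and CIITA had 3.38 (0.262 to 68.1) and 3.42 CPM (0.0822 to 66.2). The groups overlapped over nearly their whole range. The fitted difference, COTC022 minus COTC021, was -0.25 log2 for DLA-DRA (95% interval -0.69 to 0.19, adjusted p = 0.766 by limma-voom), -0.29 for CD74 (-0.70 to 0.12), -0.32 for DLA-DQA1 (-0.78 to 0.15) and -0.09 for CIITA (-0.54 to 0.35). For DLA-DRA and CIITA the medians and the fitted difference thus had opposite order. DLA-DMB (-0.13) and DLA-DMA (-0.08) lay closer to 0 than CD74. Among the estimates of all genes tested, the 6 lay low, between the 1.8th (DLA-DQA1) and the 25.0th percentile (DLA-DMA). None of the 6 was called, beside 0.0149% of 13422 genes. None of the 6 was below an unadjusted p of 0.05 either, and edgeR and DESeq2 called none. DLA-DOA (0.07 ± 0.269) and DLA-DOB (0.14 ± 0.222) were not called without the filter, where 0.00780% of genes were. The sign of the estimate differed between the 2 forms of library name, though neither estimate was called. Within the 50 long-separator libraries the difference was 0.93 for DLA-DRA (adjusted p = 0.762), and within the other 136 it was -0.59 (adjusted p = 0.250), and the 2 values were not tested against each other.

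The relation with CIITA did not differ detectably between the trials. The slope in COTC022 minus that in COTC021 was -0.06 for DLA-DRA (95% interval -0.18 to 0.06), -0.05 for CD74 (-0.16 to 0.07), -0.07 for DLA-DQA1 (-0.22 to 0.09), -0.01 for DLA-DMB (-0.13 to 0.10) and 0.05 for DLA-DMA (-0.06 to 0.16). None was called by limma-voom, edgeR called none, and 0 of 13421 genes were called by limma-voom and 2 by edgeR. Between the 2 forms of library name the 6 filtered members differed by -0.26 (DLA-DMB) to -0.04 (CD74) log2, long-separator libraries minus the others, and none was called, beside 4.27% of 13422 genes.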

How the data were processed

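Per the labels, TruSeq Stranded mRNA libraries of primary tumors were sequenced on a NovaSeq. The authors trimmed reads with Cutadapt, aligned them with STAR 2.7.0f to the CanFam4 build (UU_Cfam_GSD_1.0) and deposited expected counts per gene from RSEM 1.3.1, which were rounded here (3.07% of values were not whole). Of 198 columns, 12 matched no sample and were not used. Groups came from the trial in the sample titles. Gene symbols and positions came from RefSeq.

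Genes were kept by edgeR's filterByExpr at 10 counts, a proportion of 0.5 and a large.n of 5, scaled by TMM in edgeR 4.0.16 and tested with limma-voom (limma 3.58.1, R 4.3.3) over all filtered genes. Levels are CPM on library totals, and correlations used log2 CPM (TMM, prior count 2). Markers entered a score when 10% of libraries had 10 counts. Alternatives were edgeR quasi-likelihood, DESeq2 1.42.0, RLE scaling, no filter, unrounded counts, added covariates and subsets of libraries. On simulated data with 200 genes changed 2-fold the trial test recovered 185 with 11 false calls.

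The genes, lists and tests were chosen with earlier results of these data known. Named genes were the 8 members, list genes, and the 10 non-LOC genes most like CIITA or the members by Pearson's r. Floors on counts cover counting error only. Intervals on fitted differences rest on the limma-voom standard error over tumors, which includes the spread between them. Replicates are separate dogs.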

Additional observations from a re-analysis of the deposited data

How the results depend on the processing

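The relation of the members with CIITA kept its direction and its call under every alternative run: over the 5 filtered members, slopes ranged from 0.70 to 1.03, and from 0.35 to 0.81 with cell type scores in the fit, correlations from 0.739 to 0.956 over the 7 class II genes, and slopes on the GS-1 score from 1.37 to 1.87. Counts over all genes moved more. For the trial difference 2 genes were called, against 129 by edgeR, 71 by DESeq2, 0 within the long-separator libraries and 5 within the others. For CIITA 5894 genes were called, against 2554 within the long-separator libraries and 2962 within COTC021. With cell type scores 1761 were called, against 3382 with 1 leukocyte score in their place, 782 within COTC021 and 240 within COTC022. For GS-1 6627 were called, against 3342 within the long-separator libraries and 3607 within COTC021. The difference in CIITA slope between trials called 0 genes, and 2 by edgeR. The subsets hold fewer samples, and for the other settings the cause was not tested. Among the members, the uncalled trial difference turned positive within the long-separator libraries, at 0.79 for CD74, 0.71 for CIITA, 0.54 for DLA-DMA, 0.77 for DLA-DMB, 0.93 for DLA-DQA1 and 0.93 for DLA-DRA, and for DLA-DMA also by DESeq2 (0.027) and edgeR (0.038). The uncalled difference in CIITA slope of DLA-DMB was 0.013 without the filter. On the B cell score, 2 members (both DO genes) were called without the filter and 0 with it, since the filter removes them. The SD of DLA-DMA was 1.34 within the long-separator libraries and 1.20 over all. No paired analysis was possible because replicate numbers follow accession order and pair no samples. Depth limits DLA-DOA, DLA-DOB, IFNG and the B cell markers, and reads of polymorphic DLA genes were aligned to 1 reference, the effect of which was not tested.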

Other observations

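The proportion of DO to DM also varied between tumors. The log2 ratio of DLA-DOB to DLA-DMB fell with the macrophage marker score (Pearson's r = -0.42, permutation p = 1e-05, Spearman's rho -0.38, and -0.40 without the 2 tumors farthest from the median score). The denominator, DLA-DMB, itself rose by 0.54 ± 0.063 log2 per unit of macrophage score at equal CIITA, T cell and B cell scores. Which of the 2 genes set the sign of the relation was not tested. The ratio of DLA-DOB to DLA-DMB had r = 0.188 with the B cell score (permutation p = 0.0107499, rho 0.0543, permutation p = 0.458565). The ratio of DLA-DOA to DLA-DMA had r = 0.347 with the B cell score (permutation p = 1.99998e-05, rho 0.186, permutation p = 0.0115199) and -0.05 with the macrophage score (permutation p = 0.462565). These were among 6 relations computed after the data had been seen, and they rest on the low counts of the DO genes. The 6 include the relations of both ratios with the T cell score, which are not given here.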
